A study of Mus musculus with 4 samples.

Results

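Immediate early genes are transcribed within minutes of a stimulus without new protein synthesis, and the 10 described here are Fos, Fosb, Fosl1, Fosl2, Jun, Junb, Jund, Atf3, Egr1 and Klf4. They were taken by name from the 50766 genes of the count matrices, of which 31920 had a count in at least 1 analysed cell, and all 10 passed the filter on low counts in biliary cells. The FOS and JUN proteins pair through leucine zippers to form the transcription factor AP-1, which binds short palindromic DNA sites and acts downstream of the MAP kinases. ATF3 is a stress-induced zipper factor that can pair with JUN proteins, and EGR1 and KLF4 are zinc finger factors. In the liver, AP-1 genes are known for their induction after injury and at the start of regeneration, and in many tissues they are also known to be induced by enzymatic dissociation and sorting.

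The cells came from livers of mice of the Sox9EGFP genotype, in which a green fluorescent protein reports Sox9 activity, and the labels call them biliary epithelial cells (BECs), the lining cells of bile ducts. Of 4 mice, 2 had sham surgery and 2 had bile duct ligation (BDL), which ties off the duct, all 7 days before collection. Ages, sexes and the way the cells were isolated are not given in the sources used here, and each mouse gave 1 library of fixed cells, so n = 2 per group. The cell tables carry their own group names, which for sham replicate 2 read BDL and for BDL replicate 2 read sham. Groups follow the sample labels here, and the changes in biliary cells are also given for the pair of libraries in which both names match. The sex-linked transcripts also set 1 library apart. Xist, the RNA of the inactive X chromosome, was at 1952 CPM in the biliary cells of BDL replicate 2 and at 7.97 to 9.95 CPM in those of the other 3 mice, and the Y-linked Uty was at 1.28 CPM against 92.6 to 159 CPM. Changes in biliary cells are therefore also given without BDL replicate 2.

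After limits on depth and mitochondrial RNA, 12181 cells were analysed. Cells called BEC-like by biliary markers such as Krt19, Krt7 and Epcam numbered 2612 and 2610 in the sham mice and 1972 and 3831 in the BDL mice, 82.1 to 94.7% of each library. All 11 biliary markers were detected in BEC-like cells of every library, at a summed 9799 to 11223 CPM (the counts of a gene per 1000000 counts of the class, counted as unique molecular identifiers or UMIs). Depth differed with treatment: the median BEC-like cell held 3306 and 2783 UMIs in the sham mice and 7130 and 7876 in the BDL mice. Median mitochondrial shares of BEC-like cells were 4.37% and 5.51% against 5.46% and 6.44%. The 10 hepatocyte markers summed to 1538 and 1611 CPM in sham BEC-like cells and to 346 and 366 CPM in BDL BEC-like cells, with 9 of 10 detected in each sham library (Cyp2e1 at 0) and 10 of 10 in each BDL library. The 12 mesenchymal markers, all detected in each library, summed to 108 and 115 against 18.9 and 32.5 CPM, and the 10 endothelial markers, also all detected, to 52.4 and 53.4 against 29.7 and 16.2 CPM. The 6 mesothelial markers summed to 334 and 277 against 93.7 and 102 CPM (Upk1b at 0 in BDL replicate 1). The 6 monocyte markers summed to 313 and 294 against 537 and 798 CPM, higher in the BDL mice, with 3 detected in each sham library (Ly6c2 and Ccr2 at 0 in both) and 5 in each BDL library. Most of that sum was Fn1, at 276 and 285 against 523 and 785 CPM after edgeR's scaling of libraries. Fn1 is also counted below among genes reported as AP-1 targets. The part of depth and of RNA from other cell types in the results was not tested. Of the 11 clusters joined in the BEC-like class, clusters 0, 2, 4, 8 and 10 (led by Kcnma1, Car4, Ddit4l, Scin and Gm15564) held most sham cells, and clusters 1, 3, 5, 6, 7 and 11 (led by Uts2b, Nos2, Ccl20, Dmbt1, Ptgfr and Ryr1) most BDL cells. Some came mostly from 1 library: 1108 of the 1165 cells of cluster 5 from BDL replicate 1, 1334 of 1425 in cluster 1 and 1244 of 1274 in cluster 3 from BDL replicate 2, and 285 of 327 in cluster 10 from sham replicate 2. The Y-linked Eif2s3y, Kdm5d and Uty were also among the leading genes of cluster 5.

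In BEC-like cells, most of the 10 genes made up a smaller part of the RNA after ligation. On counts summed per mouse, tested with edgeR (quasi-likelihood, Benjamini-Hochberg adjusted over 16069 genes), 8 of the 10 genes were lower in the BDL mice, 1 (Fosl2) was higher and 1 (Fosl1) was not called. Over all genes tested, 26.9% were called, 12.7% lower and 14.2% higher. The median log2 fold change of the 10 genes was -1.62, against -0.03 over all genes tested. These are changes relative to the total counts of the class. Counted per cell with no scaling to the total, all genes shifted by a median of 1.12 on the log2 scale, since BDL cells held more UMIs. On that scale Fos (-0.69, edgeR adjusted p = 0.0281), Fosb (-0.90, 0.00435), Jun (-1.04, 0.000944) and Jund (-0.61, 0.0490) were still called lower. Fosl1 (0.70, edgeR adjusted p = 0.0221) and Fosl2 (2.15, 4.37e-12) were called higher, and Atf3, Egr1, Klf4 and Junb were not called. On that scale 2.25% of all genes tested were called lower and 68.2% higher.

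Among the FOS genes, Fos and Fosb encode the proteins with strong transactivation domains, and Fosl1 and Fosl2 encode FRA1 and FRA2, which lack them. Fos stood at 1460 and 2133 CPM in the sham mice and at 537 and 441 CPM in the BDL mice. Both sham values lay above both BDL values, with means of 1797 ± 476 and 489 ± 68.0 CPM (SD, n = 2). The log2 fold change of Fos was -1.87 (SE 0.24, edgeR adjusted p = 0.00321). Fosb was at 2631 and 3597 CPM against 710 and 748 CPM. The groups did not overlap, and Fosb fell by 2.09 on the log2 scale (SE 0.21, edgeR adjusted p = 0.00139).

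The FRA genes departed from this. Fosl1 was at 274 and 352 CPM in the sham mice and at 215 and 230 CPM in the BDL mice, a log2 fold change of -0.48 (SE 0.18, edgeR adjusted p = 0.0861). Without sham replicate 1 it was -0.70 and called (edgeR adjusted p = 0.0347), and without sham replicate 2 it was -0.18 (edgeR adjusted p = 0.498). Fosl1 was also called lower in cells of similar depth (3000 to 6000 UMIs), where its log2 fold change was -0.68 (edgeR adjusted p = 0.0383), while per cell it was called higher at a log2 change of 0.70 (edgeR adjusted p = 0.0221), below the shift of 1.12 over all genes. Fosl2 was at 93.8 and 92.6 CPM in the sham mice, which nearly coincided, and at 138 and 224 CPM in the BDL mice, which did not. It rose by 0.98 on the log2 scale (SE 0.22, edgeR adjusted p = 0.0211), and the call was lost without sham replicate 1 (0.93, edgeR adjusted p = 0.102) and without sham replicate 2 (1.07, edgeR adjusted p = 0.0990). Without BDL replicate 2 the rise was 0.60, with the call kept (edgeR adjusted p = 0.00617).

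JUN proteins can pair with each other or with FOS proteins, and JUN is the strongest activator among them. Jun was at 2044 and 2949 CPM in the sham mice and at 569 and 496 CPM in the BDL mice. The means were 2497 ± 640 and 532 ± 51.7 CPM (SD, n = 2), the widest gap among the 10 genes by fitted change, with a log2 fold change of -2.22 (SE 0.24, edgeR adjusted p = 0.00156). Jund, usually the most steadily expressed JUN gene, was at 564 and 745 CPM against 201 and 177 CPM (a log2 change of -1.78, SE 0.20, edgeR adjusted p = 0.00181). Junb, which can oppose JUN, was at 725 and 899 CPM against 359 and 398 CPM. The change of Junb, -1.09 on the log2 scale (SE 0.17, edgeR adjusted p = 0.00634), was the smallest of the 8 called falls. Per cell Junb was at 2.71 and 2.94 UMIs against 2.67 and 3.34 UMIs, so the groups overlapped on that scale and its sign turned (log2 fold change 0.09, edgeR adjusted p = 0.795).

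Atf3 was at 1572 and 1808 CPM in the sham mice and at 557 and 447 CPM in the BDL mice. The sham libraries were close for this gene, and the log2 fold change was -1.74 (SE 0.18, edgeR adjusted p = 0.00139). Egr1, a zinc finger factor induced through serum response elements, was at 1765 and 2832 CPM against 837 and 788 CPM. Its sham libraries were the farthest apart of the 10 genes by ratio, and its log2 fold change was -1.50 (SE 0.26, edgeR adjusted p = 0.00883), or -1.001 without sham replicate 2. Klf4, an epithelial differentiation factor that is also an immediate early gene, was at 146 and 191 CPM against 71.4 and 59.7 CPM. The groups were separate, with a log2 fold change of -1.35 (SE 0.19, edgeR adjusted p = 0.00462). Per cell the changes of Atf3 (-0.58, edgeR adjusted p = 0.0670), Egr1 (-0.31, edgeR adjusted p = 0.348) and Klf4 (-0.18, edgeR adjusted p = 0.562) were not called.

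**Figure D1:**
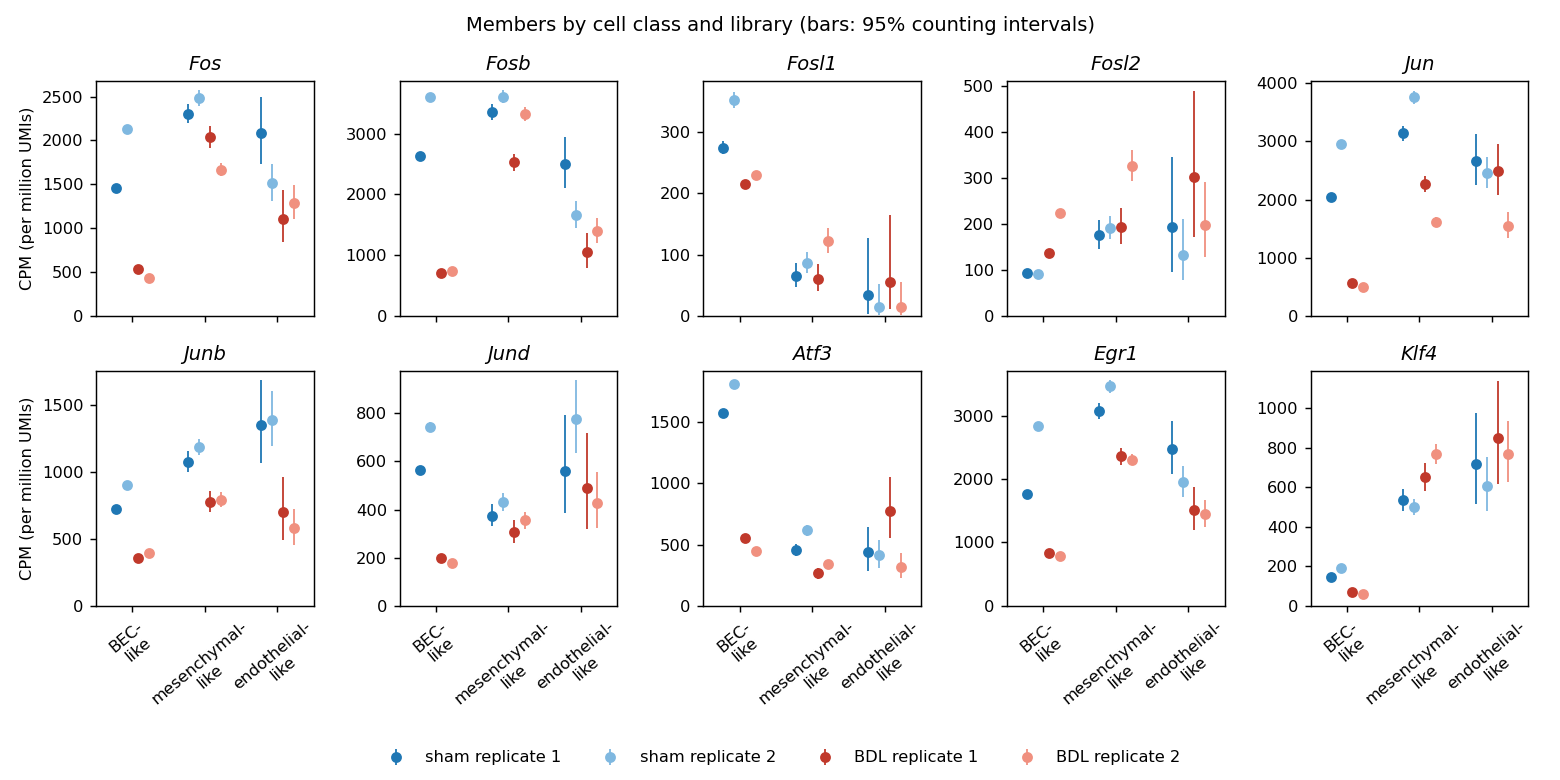
CPM of each of the 10 genes (one panel each, linear axis from 0) in BEC-like, mesenchymal-like and endothelial-like cells, with one point per library and 95% Poisson counting intervals as bars. In BEC-like cells the sham points lie above the BDL points in every panel but that of Fosl2, and in mesenchymal-like cells the BDL points of Klf4 lie above its sham points.

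The 8 falls were called in each of the 4 fits that left out 1 library and in each of 8 fits restricted to 1 sublibrary, an aliquot of cells amplified separately. Without BDL replicate 2 the log2 fold changes were -1.73 for Fos, -2.12 for Fosb, -2.12 for Jun, -1.16 for Junb, -1.69 for Jund, -1.58 for Atf3, -1.45 for Egr1 and -1.22 for Klf4, and Fosl1 was at -0.52 and not called (edgeR adjusted p = 0.0582). Jun ranged from -2.51 to -1.82 when 1 library was left out and from -2.48 to -2.06 over the sublibraries. Fosl2 was called in 7 of the 8 sublibraries and Fosl1 in 2. With only sham replicate 1 and BDL replicate 1, the libraries in which both group names match, the log2 differences had no test and the same signs: -1.35 for Fos, -1.79 for Fosb, -0.26 for Fosl1, 0.65 for Fosl2, -1.75 for Jun, -0.92 for Junb, -1.39 for Jund, -1.40 for Atf3, -0.98 for Egr1 and -0.94 for Klf4. In BEC-like cells of 3000 to 6000 UMIs, present in all 4 libraries (628 to 1139 cells), 9 of the 10 genes were called lower and Fosl2 higher, with log2 fold changes of -1.58 for Fos and -1.99 for Jun. Of all 12993 genes tested in these cells, 9.44% were called lower and 8.05% higher.

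Fewer BEC-like cells had any UMI of these genes after ligation when depth was made equal. With each cell thinned to 1000 UMIs, which left out 75 and 104 sham cells and 0 BDL cells, Fos was detected in 51.6% and 56.5% of sham cells and in 31.4% and 25.0% of BDL cells. Jun was detected in 64.8% and 70.6% of sham cells against 35.8% and 30.3% of BDL cells, and Fosb in 68.5% and 79.6% against 35.0% and 30.04%. For Fosl2 the order was the other way, 8.55% and 9.10% against 11.7% and 18.5%. For all 10 genes the thinned shares of the groups did not overlap, and the exact permutation test of 4 libraries, two-sided, gave p = 0.33 for each (0.33 after Benjamini-Hochberg adjustment over the 10), the smallest it can give. Of all genes tested in BEC-like cells, 31% had lower thinned shares in both BDL libraries than in both sham libraries and 27.8% had higher ones. Without thinning the mean difference turned for Fosl1 (18.7 points higher in BDL), Junb (5.58) and Egr1 (0.17), and Fos was detected in 73.0% ± 0.285 of sham and 69.9% ± 6.84 of BDL cells (SD, n = 2). No class was fixed as lacking these genes, and the background from free RNA was not measured.

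The promoters of Fos and Jun, the gene pair of the classical AP-1 dimer, are shown because both genes fell together in BEC-like cells and varied together from cell to cell, with the values given after the sequences. The sequences are RefSeq promoters on mouse build GRCm38.p6, from 250 bases before to 50 after the transcription start, and capitals mark a motif match. The counts themselves were made on another build, GRCm39. The Fos promoter lies at chr12:85473640-85473939 on the plus strand and its capitals mark a TATA box, and the Jun promoter lies at chr4:95052173-95052472 on the minus strand and its capitals mark the AP-1 site variant TGACATCA.
Fos: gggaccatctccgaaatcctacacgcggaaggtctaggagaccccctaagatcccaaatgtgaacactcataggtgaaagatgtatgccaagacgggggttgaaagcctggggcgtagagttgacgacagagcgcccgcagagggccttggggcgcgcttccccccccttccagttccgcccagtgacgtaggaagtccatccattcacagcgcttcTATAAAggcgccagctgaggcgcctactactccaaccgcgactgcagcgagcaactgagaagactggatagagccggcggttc
Jun: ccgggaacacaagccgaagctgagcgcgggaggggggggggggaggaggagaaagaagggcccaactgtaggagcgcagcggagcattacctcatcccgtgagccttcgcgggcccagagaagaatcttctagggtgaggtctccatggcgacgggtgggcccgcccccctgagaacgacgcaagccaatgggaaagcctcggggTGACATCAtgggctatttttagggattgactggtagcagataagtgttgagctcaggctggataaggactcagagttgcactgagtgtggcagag

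Promoters of 8 of the 10 genes were searched. Those of Fosl1 and Egr1 were not, so the counts say nothing about them. Both strands were searched for 5 motifs. The classical AP-1 site TGACTCA was in 0 of the 8 promoters and in 5.20% of 32851 promoters of the same length, and the cAMP response element TGACGTCA was in 0 of the 8 and in 1.79%. The variant TGACATCA was in 1 of the 8, that of Jun, 45 to 38 bases before the start, and in 3.62% of all promoters. The CArG box of serum response factor was in 0 of the 8 and in 1.63% of all. TATAAA was found 33 to 28 bases before the start of Fos and at the start of Junb, and in 13.6% of all promoters. These matches are descriptions of this window only, and a site that differs from the searched motif was not counted.

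Among BEC-like cells of 1 library, these transcripts were unevenly spread. At 2000 UMIs per cell, the 10 genes together gave a median of 17 and 22 UMIs per cell in the sham mice and of 6 and 5 in the BDL mice. The 10th to 90th percentiles ran from 5 to 50.3 and from 6 to 74 in the sham mice and from 2 to 18 in each BDL library. The 90th percentile of the BDL cells thus lay above the median of sham replicate 1 and below that of sham replicate 2. Fos, Fosb and Jun had the 3 highest variance-to-mean ratios in each of the 4 libraries. The variance of Fos was 6.31 and 8.83 times its mean in the sham mice and 4.04 and 5.53 times in the BDL mice, where Poisson counts would give 1. The 10% of cells with most Fos held 46.2% and 44.4% of its UMIs in sham mice against 55.1% and 65.9% in BDL mice. The mean of Fos was 2.93 and 4.37 UMIs per cell in sham mice and 1.17 and 0.978 in BDL mice. The variance-to-mean ratios of Fosl2 and Jund were 1.16 to 1.29 and 1.19 to 1.66. For Fosl2 the 10% of cells with most of it held 68.7% and 68.9% of its UMIs in sham mice and 57.1% and 49.5% in BDL mice, at a mean of 0.185 to 0.443 UMIs of Fosl2 per cell.

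The same cells tended to hold many of these transcripts. Across BEC-like cells within each library, Pearson's r of log counts was 0.67, 0.76, 0.43 and 0.48 for Fos and Jun (sham replicates 1 and 2, BDL replicates 1 and 2) and 0.63, 0.69, 0.56 and 0.57 for Fos and Fosb. Atf3 followed Fos at 0.49, 0.68, 0.42 and 0.50. All r are descriptions over 1887 to 3796 cells that share a library and a fixed depth. Fosl1 behaved differently: its r with Fos was -0.17, -0.30, -0.03 and -0.01, so the sham cells rich in Fos tended to be poor in Fosl1. Fosl2 had a mean r between 0.00 and 0.07 with each of the others, Fosl1 included.

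**Figure D2:**
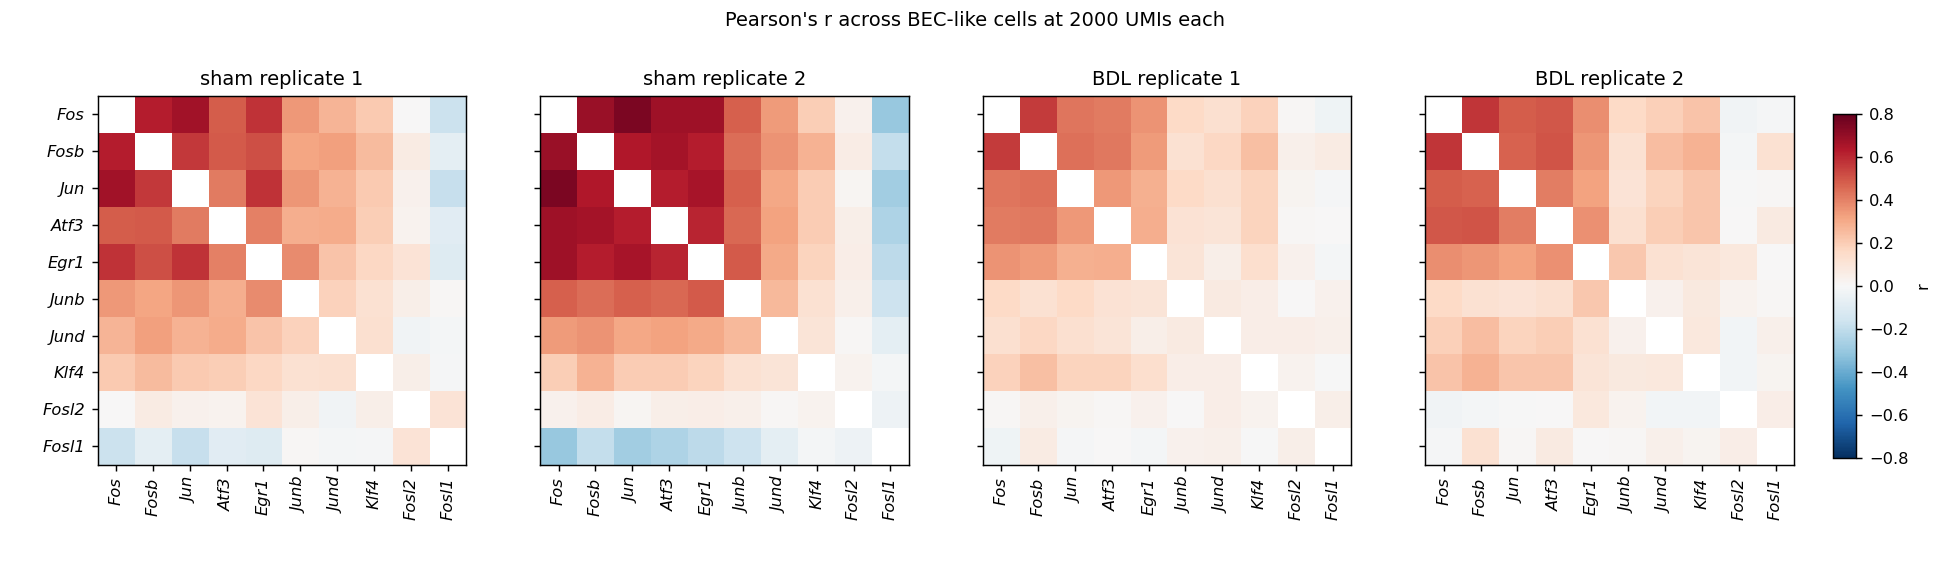
Pearson's r (colour scale from -0.8 to 0.8) between the 10 genes across BEC-like cells thinned to 2000 UMIs, one panel per library, with the diagonal left blank. The block of Fos, Fosb, Jun, Atf3 and Egr1 is positive in each panel, and the Fosl1 row is negative with Fos in all 4 panels.

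By the same measure, averaged over the 4 libraries among 2930 genes, the genes most like Fos outside the 10 were Ifrd1 (r = 0.29), Klf6 (0.28) and Btg2 (0.27). Also with the 10 left out, Ifrd1 led for Fosb (0.38), Atf3 (0.32) and Klf4 (0.15), Klf6 led for Jun (0.29), Junb (0.20) and Jund (0.17), and Zfp36, which encodes an mRNA decay factor, led for Egr1 (0.29). Fosl1 had other neighbours: F3 (tissue factor, 0.23), Hbegf (an EGF receptor ligand, 0.20) and Sgms2 (0.19). For Fosl2 the highest was Ccn1 at 0.11.

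BEC-like cells were divided again without the genes at an unadjusted p under 0.05 and without the AP-1 lists, which gave 6 subclusters, 5 of them with at least 50 cells in every library. Subcluster 3, led by Txnip, Fos and Klf2, had Fos at 3172 and 4491 CPM in the sham mice and 1744 and 2279 CPM in the BDL mice, higher than the other 4 of these subclusters in each library. It held 867 and 985 of the sham cells but 242 and 395 of the BDL cells. Subcluster 4, led by Dmbt1 and Anxa1, had Fos at 264 and 350 CPM against 342 and 238 CPM, so the groups overlapped there, and it had the highest Fosl1 of the 5 in the BDL mice (330 and 369 CPM) and in sham replicates 1 and 2 (485 and 599 CPM). Jun, Fosb, Junb, Jund, Egr1 and Klf4 were lower in both BDL libraries than in both sham libraries in each of the 5 subclusters, and Fos and Atf3 in 4 of the 5. Of all genes tested in BEC-like cells, 4.26% were lower in this way in all 5 and 11.4% in at least 4. Within subclusters the log2 difference of Jun (group means plus 1 CPM) ran from -1.81 to -0.91, against -2.22 in all BEC-like cells. That of Fos ran from -1.34 to -0.08, against -1.87. Fosl2 was higher in both BDL libraries in 4 of the 5 (12.7% of all genes were in at least 4), and Fosl1 was lower in 3 and higher in 1.

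**Figure D3:**
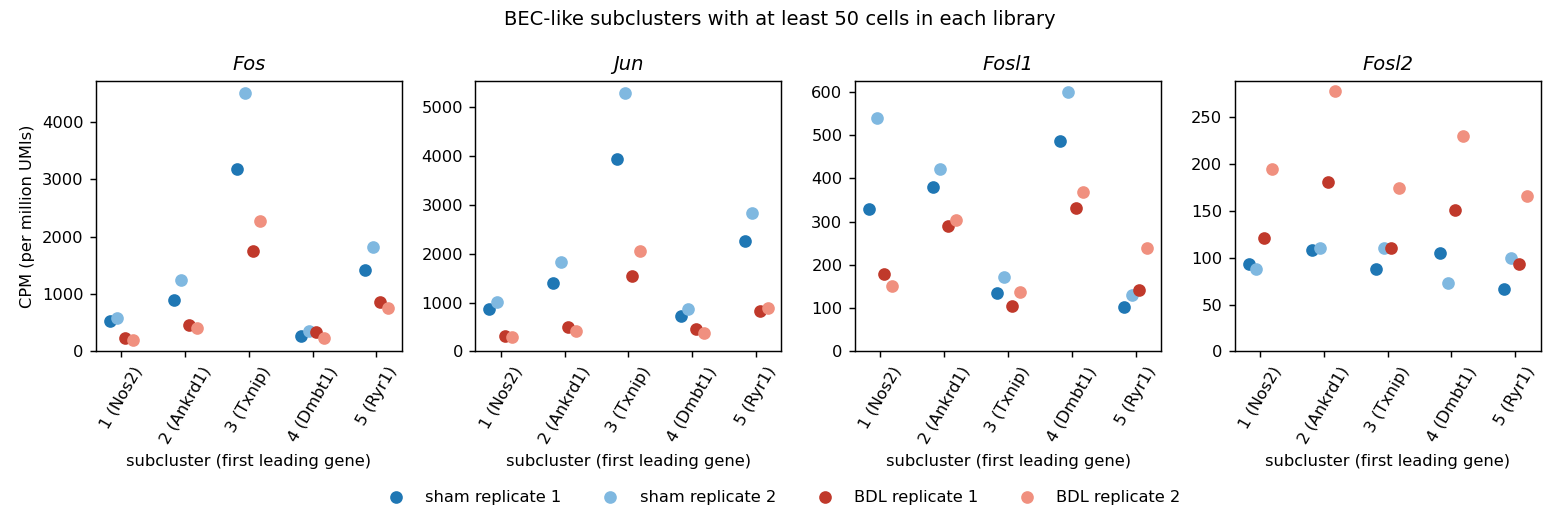
CPM of Fos, Jun, Fosl1 and Fosl2 (linear axes from 0) in the 5 BEC-like subclusters with at least 50 cells per library, named by number and first leading gene, with one point per library. Fos and Jun peak in subcluster 3 in all 4 libraries, Fos overlaps between the groups in subcluster 4, and Fosl1 is highest in subcluster 4.

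Mesenchymal-like cells, named by collagens and Pdgfrb, numbered 188 and 404 in the sham and 71 and 132 in the BDL mice. There edgeR called 0 of the 10 genes after Benjamini-Hochberg adjustment (7.53% of 8781 genes were called, 2.81% higher and 4.71% lower), 3 had an unadjusted p under 0.05 (Atf3, Jun and Junb; 23.6% of all genes did), and DESeq2 called 1 (Jun, adjusted p = 0.0443). edgeR also called Jun lower without BDL replicate 1 (-1.16, adjusted p = 0.00412) and with no filter on low counts (-0.84, 0.00422), and Atf3 without BDL replicate 2 (-1.04, 0.0133) and with no filter (-0.84, 0.0202). Fos was at 2306 and 2478 CPM against 2041 and 1666 CPM, with a log2 fold change of -0.42 (SE 0.26, edgeR adjusted p = 0.381). Jun was at 3137 and 3754 CPM against 2269 and 1625 CPM, with a log2 fold change of -0.88 (SE 0.29, edgeR adjusted p = 0.106). Klf4 was at 533 and 498 CPM against 650 and 766 CPM, with a log2 fold change of 0.41 (SE 0.22, edgeR adjusted p = 0.291), so in this class both BDL libraries were above both sham libraries.

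The difference between the classes was tested directly, with the mouse as a block. The change after ligation was lower in BEC-like than in mesenchymal-like cells for 7 of the 10 genes, against 3.14% of 15294 genes called lower and 3.78% called higher (6.92% in all). The difference was -1.76 for Klf4 (SE 0.26, edgeR adjusted p = 3.02e-05), -1.75 for Fosb (2.56e-05), -1.44 for Jund (0.000287), -1.42 for Fos (0.000310) and -1.31 for Jun (0.000803). For Egr1 it was -0.91 (0.02497) and for Atf3 -0.88 (0.0396). Egr1 lost the call without sham replicate 2 (edgeR adjusted p = 0.235), and Atf3 without sham replicate 1 (0.123) and without BDL replicate 2 (-0.54, 0.455), where the other 6 were called. Junb (-0.50, edgeR adjusted p = 0.267), Fosl1 (-0.71, 0.188) and Fosl2 (0.53, 0.262) were not called, and Fosl1 was called without BDL replicate 1 (-1.04, 0.0303).

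Different clusters made up the mesenchymal-like class in the 2 groups. A cluster led by Colec10 and Lrat held 56.4% and 75.0% of it in the sham mice and 38.0% and 15.2% in the BDL mice, and a cluster led by Fbn2 and Col1a1 held 9.57% and 3.96% against 59.2% and 84.8%. Within the first, Jun was at 4163 and 4416 CPM against 2981 and 1739 CPM, and Junb, Jund, Fosb, Atf3 and Egr1 were also lower in both BDL libraries, on 27 and 20 BDL cells. Of all genes tested in mesenchymal-like cells, 19.8% were lower in both BDL libraries within this cluster and 21.7% higher. Fos overlapped there, at 2728 and 2733 CPM against 2763 and 1989 CPM. Within the second, Fosb, Junb, Jund, Egr1 and Klf4 were higher in both BDL libraries, as were Fos and Jun, while Fosl1 was lower and Atf3 and Fosl2 overlapped. Fos was at 180 and 543 CPM on 18 and 16 sham cells (25 and 81 UMIs) and at 1752 and 1625 CPM in the BDL mice, and Jun was at 383 and 737 against 1989 and 1611 CPM. In this cluster 35% of all genes tested were higher in both BDL libraries and 12.7% lower. A further cluster, led by C7 and Abca8a, held 34.0% and 21.0% of the sham cells of the class but 2 and 0 BDL cells, with Fos at 2930 and 2832 CPM and Jun at 3243 and 3466 CPM in the sham mice. What each cluster contributed to the class total was not tested.

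**Figure D4:**
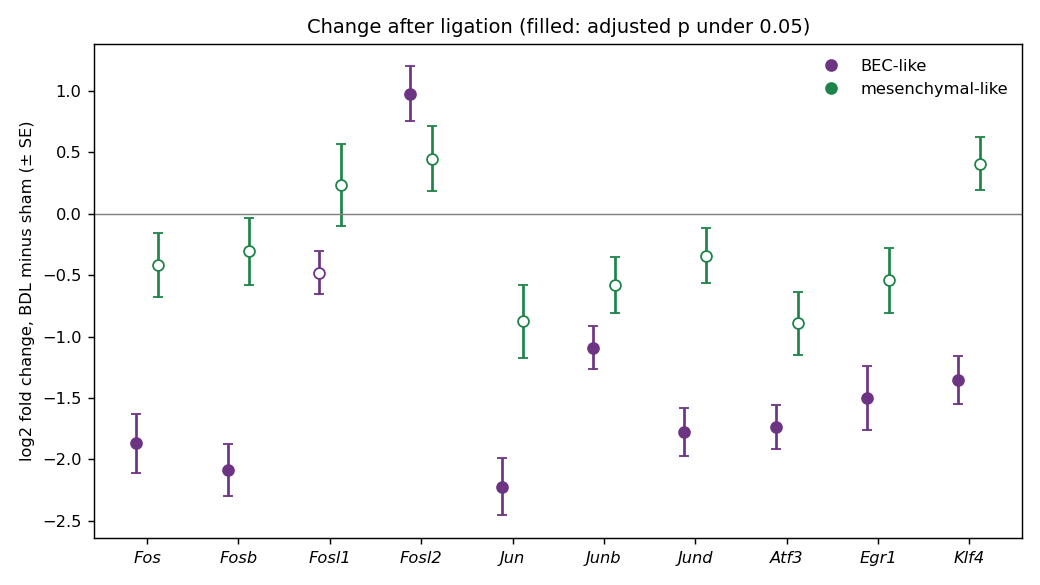
Log2 fold change from sham to BDL (± SE, from edgeR) of the 10 genes in BEC-like and mesenchymal-like cells, with filled points where the adjusted p was under 0.05. The BEC-like points of 8 genes are filled below 0 and that of Fosl2 above 0, while no mesenchymal-like point is filled.

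Endothelial-like cells, named by Pecam1 and Stab2, were few, 39 and 118 against 18 and 34 cells. Of the 9 genes that passed the edgeR filter, 0 were called after Benjamini-Hochberg adjustment (0.105% of 1911 genes were, 0.0523% in each direction), 4 had an unadjusted p under 0.05 (Egr1, Fos, Fosb and Junb; 18.7% of all genes did), and DESeq2, which took all 10, called 1 (Junb, adjusted p = 0.0354). Junb was at 1351 and 1389 CPM against 698 and 580 CPM, with a log2 fold change of -1.32 (SE 0.31, edgeR adjusted p = 0.103). Fosl1, with 2 or 3 UMIs in each library, did not pass edgeR's filter and got no adjusted p from DESeq2. Macrophage-like cells (15 to 28 per library) were named by 6 macrophage markers, and their cluster also met 4 monocyte markers by the same measure. They had Fos at 374 and 848 CPM on 15 and 21 UMIs against 746 and 459 CPM on 39 and 52 UMIs. The groups overlapped, with no test made. Hepatocyte-like cells numbered 2 and 29 in the sham and 6 and 33 in the BDL mice. They too came from different clusters: one led by Fgb and Hpx held 0 and 0 sham against 5 and 33 BDL cells, and one led by Mup3 and Car3 held 2 and 29 against 1 and 0. Fos had 0 and 17 UMIs there in the sham mice (0 allows up to 393 CPM at 3 UMIs, counting error only) and 29 and 317 UMIs in the BDL mice, the latter at 674 and 1317 CPM. Jun had 2 UMIs in sham replicate 1 (a 95% counting interval of 31.7 to 947 CPM) and was at 449 CPM in sham replicate 2 and at 1116 and 1425 CPM in BDL hepatocyte-like cells, again on few cells, and no test was made in this class.

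Across the 3 larger classes, Fosl1 was highest in BEC-like (215 to 352 CPM over the 4 libraries), then mesenchymal-like cells (60.4 to 122 CPM), without overlap. Endothelial-like cells, at 14.8 to 56.6 CPM on 2 or 3 UMIs each, could not be ranked against the latter. Klf4 had its lowest levels in BEC-like cells (59.7 to 191 CPM), below mesenchymal-like (498 to 766 CPM) and endothelial-like cells (606 to 848 CPM), and the latter pair overlapped. Atf3 in sham libraries was at 1572 and 1808 CPM in BEC-like cells, above the 456 and 617 CPM of mesenchymal-like and the 439 and 414 CPM of endothelial-like cells, while in BDL libraries the 447 and 557 CPM of BEC-like cells lay within the endothelial-like range of 320 to 773 CPM. Classes came from clustering, so these are descriptions.

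Most other immediate early genes were also lower in BEC-like cells after ligation on the CPM scale. Of 22 other immediate early genes, all tested, 13 were lower in the BDL mice and 2 (Egr3 and Ier3) higher, against 12.7% and 14.2% of all genes. Their median log2 fold change was -0.78. Per cell 9 of the 22 were called higher and 1 lower, against 68.2% and 2.25% of all genes. The per-cell median was 0.38, below the shift of 1.12 over all genes. The 3 with the smallest adjusted p were Sgk1, a serum and glucocorticoid regulated kinase (from 113 and 93.96 to 33.5 and 31.6 CPM, a log2 change of -1.64, SE 0.12, edgeR adjusted p = 0.000479), Zfp36 (-1.28, SE 0.11, edgeR adjusted p = 0.000831) and Csrnp1 (-1.64, SE 0.14, edgeR adjusted p = 0.000886). Dusp1 (-0.12, edgeR adjusted p = 0.722), Myc (-0.22, edgeR adjusted p = 0.212) and Ccn1 (-0.17, edgeR adjusted p = 0.423), chosen here after their values were seen, were not called. Summed, the list stood at 5569 and 5681 CPM in sham and at 4015 and 4369 CPM in BDL BEC-like cells.

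Of 11 other zipper partners, 9 were tested, 4 were lower and 1 higher (1 lower and 5 higher per cell). Over all genes, 12.7% were lower and 14.2% higher, and per cell 2.25% were lower and 68.2% higher. Maff, a small MAF protein, fell by 0.99 on the log2 scale (SE 0.13, edgeR adjusted p = 0.00331), from 234 and 258 to 122 and 123 CPM. Jdp2, a JUN dimerization partner that represses AP-1, rose from 27.4 and 28.1 to 76.4 and 55.3 CPM (a log2 change of 1.27, SE 0.18, edgeR adjusted p = 0.00475). Of 18 upstream kinases and serum response factors, 3 were higher and 2 lower (16 higher and 0 lower per cell), near the shares over all genes of 14.2% higher and 12.7% lower. Mapk8, which encodes JNK1, a JUN kinase, was lower (-0.75, SE 0.11, edgeR adjusted p = 0.00470), as was Srf (-0.77, SE 0.14, edgeR adjusted p = 0.00929), while Elk3, an SRF partner, was higher (1.55, SE 0.16, edgeR adjusted p = 0.00139). Of 9 MAP kinase phosphatases and feedback genes, 3 were higher and 1 lower (9 higher and 0 lower per cell), with Dusp10 at 1.001 (SE 0.14, edgeR adjusted p = 0.00461), Dusp16 at 0.67 (SE 0.13, edgeR adjusted p = 0.0141) and Dusp6 at -0.55 (SE 0.11, edgeR adjusted p = 0.0144).

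Of 19 genes reported elsewhere as AP-1 targets, 15 were tested, 9 were higher and 2 lower (Hbegf and Vegfa), with a median log2 fold change of 1.03, against 14.2% higher and 12.7% lower over all genes. Per cell 12 were higher and 0 lower, against 68.2% and 2.25%. Cd44, a hyaluronan receptor, rose from 311 and 326 to 1774 and 2135 CPM (a log2 change of 2.64, SE 0.16, edgeR adjusted p = 0.000446). Itgb6, an integrin subunit, rose from 171 and 123 to 639 and 853 CPM (2.37, SE 0.19, edgeR adjusted p = 0.000679). These genes are also controlled by other factors, and no AP-1 activity was measured.

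Because dissociation can induce these genes, handling measures are set beside them. Of 14 heat shock genes, all tested in BEC-like cells, 9 were lower in the BDL mice and 1 (Hspb1) higher, against 12.7% and 14.2% of all genes. Their median log2 fold change was -0.52. Per cell 8 of the 14 were called higher and 0 lower, against 68.2% and 2.25% of all genes. The per-cell median was 0.63, below the shift of 1.12 over all genes. Dnajb1, a co-chaperone, fell by 1.37 on the log2 scale (SE 0.19, edgeR adjusted p = 0.00409), Dnajb4 by 1.08 (SE 0.18, edgeR adjusted p = 0.00770) and Hspa1a, the inducible HSP70, by 0.87 (SE 0.13, edgeR adjusted p = 0.00492). The list summed to 4293 and 4475 CPM in sham and to 3459 and 2995 CPM in BDL BEC-like cells. In mesenchymal-like cells of the same libraries it summed to 5522 and 5364 against 3704 and 3839 CPM. There 4 of the 14 genes were called lower and 0 higher, against 4.71% and 2.81% of all genes. The 10 AP-1 and immediate early genes summed to 14547 and 16300 against 11443 and 11616 CPM in mesenchymal-like cells. In BEC-like cells they summed to 11276 and 15600 against 4195 and 4008 CPM. By the test between classes, 0 of the 14 heat shock genes were called by edgeR with Benjamini-Hochberg adjustment, and no other tool was run on this test. An unadjusted p under 0.05 was found for 2 (18.3% of all genes had one), Hspa1a (0.75) and Dnaja1 (0.77). Both fell more in mesenchymal-like cells, opposite to the called AP-1 and immediate early genes. Of the 14 differences, 8 were below 0. The part of handling in the lower CPM of the 10 genes was not tested, and time from tissue to fixation is not given in the sources used here.

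Within each library, shallower cells had more of some of these genes per UMI. With the BEC-like cells of each library split into 3 equal parts by depth, Fos was at 1616 CPM in the shallowest and 1349 CPM in the deepest part of sham replicate 1, and at 643 and 353 CPM in those of BDL replicate 2. Atf3, Junb and Jund declined from the shallowest to the deepest part in all 4 libraries. Egr1 in BDL replicate 1 did not, with 821 and 856 CPM. First-round barcoding wells, 10 of sham and 9 of BDL cells, each held 1 mouse. Over these wells Fos ran from 1103 to 2717 CPM in sham and from 299 to 703 CPM in BDL cells, and the wells of the groups were separate for the 8 called falls but not for Fosl1 and Fosl2. Of all genes tested in BEC-like cells, 4.93% had every BDL well below every sham well and 5.37% every BDL well above.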

How the data were processed

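The libraries were made from fixed whole cells with the Parse Evercode kit, which tags cells by splitting and pooling, with both oligo(dT) and random primers, per the labels' protocols. The deposited matrices hold counts of UMIs per cell and gene, not normalized, on a reference named mm39refseq per the file headers (GRCm39, per the submitters' processing notes). Software, cell calling and doublet treatment are not given in the sources used here.

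The 10 genes and all gene lists were chosen with earlier results of these data known. Of 12211 cells, 7 with under 500 UMIs and 11 with over 20% mitochondrial UMIs were left out. No barcode was shared between libraries. Scrublet called 12 doublets (0.0984%), a share at which it is not taken to have worked unless doublets were removed before deposit, and no other caller was run. The 2000 most variable genes, without the lists other than the reported targets, gave 30 components and Leiden clusters at resolution 1 (scanpy 1.11.5, leidenalg 0.10.2). A cluster took the name of a class when at least 3 markers and at least 50% of that class's markers were each in 5% of its cells and over 2-fold higher; the remaining clusters needed 3 biliary markers by the same measure against these classes to be BEC-like. This naming rule was set after the data were seen, so differences from the study may come from rebuilt names. The classes were BEC-like, mesenchymal-like, endothelial-like, macrophage-like and hepatocyte-like, in 18 clusters.

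UMIs were summed per mouse and class. edgeR 4.0.16 (R 4.3.3; TMM, default filter, quasi-likelihood F test, two-sided, threshold 0.05 after Benjamini-Hochberg adjustment) compared BDL with sham in BEC-like, mesenchymal-like and endothelial-like cells, each with at least 15 cells in every mouse. No test was planned or run in macrophage-like and hepatocyte-like cells. Standard errors come from the F statistic. CPM printed are relative to all UMIs of the class, without TMM scaling, except those of Fn1, which carry it. Libraries held 9998533 to 33714611 UMIs. The libraries come from separate mice, and p-values rest on the spread between 2 mice per group. edgeR draws each gene's spread toward that of other genes, so p-values do not measure the spread of that gene alone. Tested on simulated data (200 genes given a log2 change of 2), the BEC-like fit recovered 98.5% with 6 false calls among 15666 genes, the mesenchymal-like fit 96.0% with 4 among 8370, and the endothelial-like fit 95.5% with 6 among 1682. Replicates differed by more than sampling noise (chi-square per degree of freedom 25.7 and 38.0). Intervals cover counting error at 95%. Beside the 10 genes, each other list is named by up to 3 genes with the smallest adjusted p under 0.05, with some genes not reported here, and each of the 10 by the 3 most correlated genes outside the 10, of at least 0.1 UMI per cell. Alternatives tried were DESeq2 1.42.0 and its size factors, other filters, clustering resolutions 0.5 and 2, stricter mitochondrial and doublet limits, thinning, single sublibraries and each mouse left out. UMIs per cell and cells of 3000 to 6000 UMIs were added after seeing the data.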

Additional observations from a re-analysis of the deposited data

Results flagged for a closer look

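These genes differed between BEC-like and mesenchymal-like cells in their change after ligation, by edgeR's test of the difference itself with the mouse as a block. Each value is the log2 change in BEC-like cells minus that in mesenchymal-like cells. Among the AP-1 and immediate early genes it was lower in BEC-like cells for Fosb (-1.75, adjusted p = 2.56e-05), Klf4 (-1.76, adjusted p = 3.02e-05), Jund (-1.44, adjusted p = 0.000287), Fos (-1.42, adjusted p = 0.00031), Jun (-1.31, adjusted p = 0.000803), Egr1 (-0.91, adjusted p = 0.025) and Atf3 (-0.88, adjusted p = 0.0396). The call was lost for Egr1 without sham replicate 2 (adjusted p = 0.235) and for Atf3 without sham replicate 1 (-0.78, adjusted p = 0.123) and without BDL replicate 2 (-0.54, adjusted p = 0.455). The mesenchymal-like class itself was made of different clusters in sham and BDL libraries, as given above.

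Among the other named genes it was lower for Csrnp1 (-1.80, adjusted p = 2.09e-05), Zfp36 (-1.32, adjusted p = 0.00104), Sgk1 (-1.32, adjusted p = 0.00235), Maff (-1.09, adjusted p = 0.00805) and Mapk8 (-1.24, adjusted p = 0.0137). It was higher for Itgb6 (2.26, adjusted p = 2.08e-06), Jdp2 (1.65, adjusted p = 0.000341), Cd44 (1.18, adjusted p = 0.00608) and Elk3 (1.44, adjusted p = 0.00936). Most of these other genes were named for their change in BEC-like cells, so the side on which they fall says nothing about the classes.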

How the results depend on the processing

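No paired analysis was possible because replicate numbers here follow accession order and pair no mice. In fits without 1 mouse, the other mouse of that group was taken to vary as the opposite group does.

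Of 260 alternative values of the 10 log2 fold changes in BEC-like cells, 244 were counted as the same. Where a test was run, this meant the same direction and side of the threshold. For the untested pair of sham replicate 1 and BDL replicate 1, it meant the same direction and a shift within the spread of replicates. On the scale of UMIs per cell, Fosl1 (0.70) and Junb (0.087) were reversed, 4 of the 10 genes were lower and 2 higher, and 11327 genes were called, 10965 of them higher (96.8%, against 52.6%). With no filter on low counts 62.9% of calls were higher. Genes called in BEC-like cells numbered 1402 to 6026 with 1 library left out (1735 without sham replicate 1, 1402 without sham replicate 2), 589, 2382, 1867, 2163, 1988, 1965, 2191 and 1868 in sublibraries 1 to 8, and 2273 in cells of 3000 to 6000 UMIs, where fewer cells and genes were tested. Genes called higher among the 10 were 0 in sublibrary 1 and 0 to 1 with 1 library left out, and genes called lower were 8 or 9 in every alternative but UMIs per cell. DESeq2 called 3650 genes, 3386 shared with edgeR in direction.

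In mesenchymal-like cells the count of 661 became 357 with DESeq2, 1145 with no filter on low counts and 128 to 1432 with 1 library left out (128 without sham replicate 1, 427 without sham replicate 2, 1432 without BDL replicate 1). Fosl1 ran from -0.35 (without BDL replicate 2) to 0.60. In endothelial-like cells 2 became 29 with DESeq2, 55 with no filter and 0 to 207 with 1 library left out (27 and 12 without sham replicates 1 and 2, 207 and 0 without BDL replicates 1 and 2). The count of genes that differed between the classes was 689 (without BDL replicate 2) to 1171 with 1 library left out. Among shares of cells, no thinning reversed Fosl1 (18.7 points), Junb (5.58) and Egr1 (0.17). The cause was not tested where none is stated.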

Other observations

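Fosl2 varied in BEC-like cells between first-round barcoding wells of the same mouse. Over the 5 wells of sham replicate 1 it ran from 48.4 to 197 CPM with a median of 84.3 CPM, and over the 4 wells of BDL replicate 2 from 138 to 358 CPM, with at least 457 and 914 cells per well. The highest sham well exceeded each of the 5 wells of BDL replicate 1, which ran from 111 to 191 CPM. Over sublibraries, which mix all wells, Fosl2 ran from 79.0 to 106 CPM in sham replicate 1 and from 200.4 to 244 CPM in BDL replicate 2. Jun ran from 1622 to 2549 CPM over the wells of sham replicate 1.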
